A study of Mus musculus with 6 samples.

Results

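Purinergic receptors sense nucleotides and nucleosides that leave cells, and ectonucleotidases are the surface enzymes that break these signals down. The genes described here are 9 of the 55401 in the deposited count table, listed by name and matched through their Ensembl identifiers: the P2Y receptors P2ry12, P2ry13 and P2ry6, the P2X channels P2rx4 and P2rx7, the adenosine receptors Adora2a and Adora3, and the ectonucleotidases Entpd1 and Nt5e. They were compared between brain microglia of MRL/lpr mice, a lupus-prone strain that carries the lpr mutation of Fas, and of MRL/mpj mice, the matching strain without that mutation. All mice were untreated and 6 weeks old, and 3 libraries were made per strain. Cells were taken by a Percoll gradient and magnetic selection for CD11b, a surface protein of microglia that other myeloid cells carry as well. The strains differ as whole animals, so the mutation acts in every cell of the mouse and not in microglia alone. Nothing in the labels says whether a library came from 1 animal or several, so the p-values measure the spread between these libraries. The methods describe female mice, but the inactive X transcript Xist had 8886 to 11319 counts in each MRL/lpr library but 27 to 38 in each MRL/mpj library. Sex and strain therefore cannot be told apart here. The comparison asks which nucleotide sensors and enzymes of microglia differ between lupus-prone and control mice.

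In the brain, ATP and ADP released by active or damaged cells draw microglial processes through the Gi-coupled receptor P2RY12, while UDP acts on P2RY6, a receptor linked to phagocytosis. P2RX4 and P2RX7 are cation channels opened by ATP, and P2RX7 needs high ATP concentrations and is known for setting off the NLRP3 inflammasome. CD39, the product of Entpd1, removes phosphates from ATP and ADP to leave AMP, and CD73, the product of Nt5e, turns AMP into adenosine, which acts on the adenosine receptors.

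Total counts ran from 45481609 to 49846634 per library. Genes with 4 counts (1138 to 1288 per library) far outnumbered genes with 3 counts (320 to 415) or 5 counts (211 to 261). The cause was not tested, and what 1 count stands for is not given in the sources used here. The MRL/lpr replicate 3 library stood apart, with 6.38% of its counts on the gene CT010467.1 against 0.169% to 0.457% in the other libraries. Counts of Fas itself overlapped between strains, at 282 to 461 in MRL/lpr and 362 to 432 in MRL/mpj (edgeR adjusted p = 0.887), so its total does not check the strain labels. The mitochondrial share was 3.06% to 3.49% in MRL/lpr and 5.84% to 6.38% in MRL/mpj. Values below are depth-scaled counts (CPM) after TMM, a normalization that lines up the bulk of genes between libraries. A gene is called higher or lower in MRL/lpr microglia where edgeR's quasi-likelihood adjusted p-value (Benjamini-Hochberg, over the 19554 genes tested) is under 0.05. Of these genes, 11.1% were called higher and 9.06% lower. With scaling by library size only, 1634 were higher and 2790 lower, in place of 2178 and 1772, and the median log2 fold change moved from -0.01 to -0.13.

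All 9 purinergic genes had enough counts to be tested. P2ry13, P2ry6, P2rx7 and Adora3 were called lower in the MRL/lpr libraries and none of the 9 was called higher. That is 4 of 9 lower, where the share over all genes was 9.06%. The 9 genes were listed with earlier results of these data known, so this contrast and those below do not test for enrichment. At an unadjusted p under 0.05, 6 were lower and 0 were higher, against 15.5% and 16.3% of all genes. DESeq2 called 5 lower and 0 higher, against 11.0% and 12.9% of all genes. In 6 of the 9, every MRL/lpr library lay below every MRL/mpj library, as did 19.4% of all genes tested. The median log2 fold change of the 9 was -0.29, against -0.01 over all genes tested. None of the 9 reached the additional minimum of a log2 fold change of 1 in either direction, which 3.66% of all genes passed as lower and 4.67% as higher. The count of 4 fell to 2 without MRL/lpr replicate 2 and to 2 without MRL/mpj replicate 2. Over all genes, 1405 and 1203 were lower in those fits, against 1772. In bulk RNA, fewer cells of a type and less RNA per cell cannot be told apart.

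**Figure D1:**
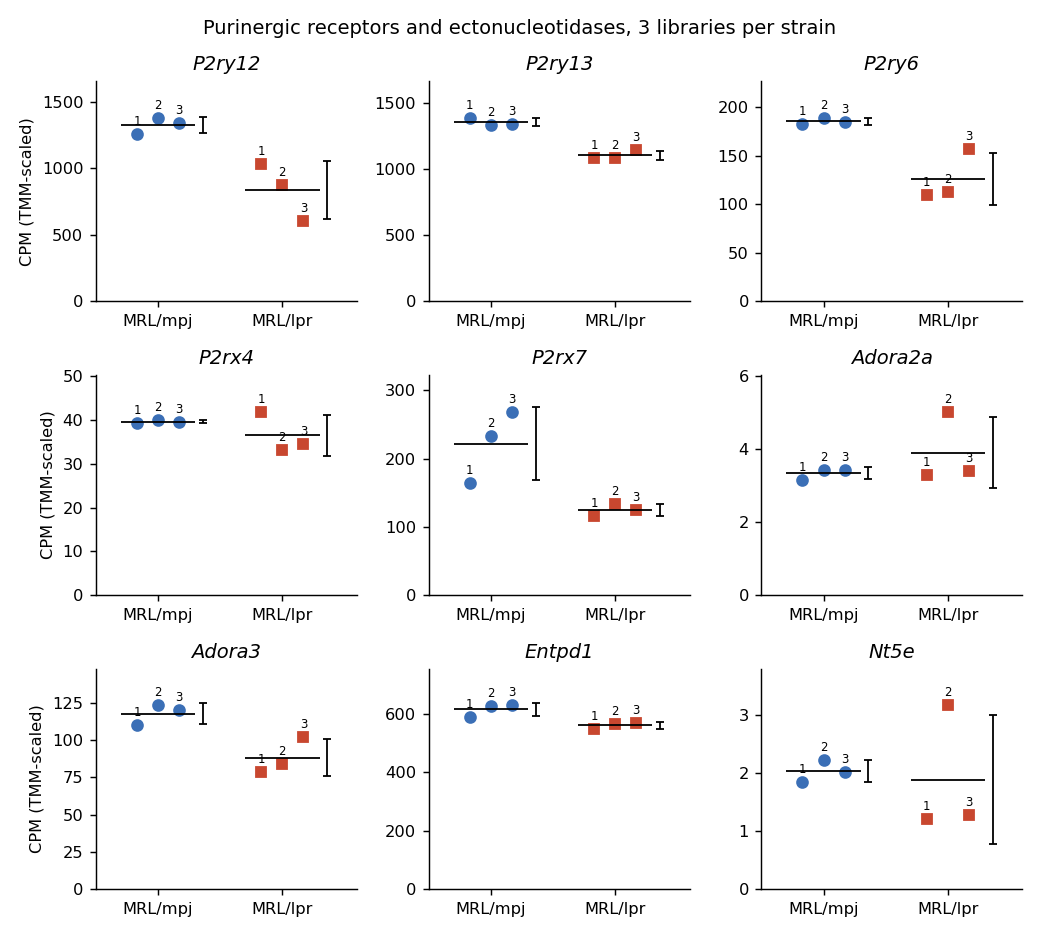
TMM-scaled CPM (linear axes from 0) of each purinergic gene in the 3 MRL/mpj and 3 MRL/lpr libraries, with replicate numbers beside the points, lines at the means and bars of 1 SD. P2ry12, P2ry13, P2ry6, P2rx7, Adora3 and Entpd1 have every MRL/lpr point below every MRL/mpj point, and the 3 P2ry12 points of MRL/lpr are spread from 600.5 to 1029 CPM.

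P2ry12 and P2ry13 are neighbours on chromosome 3, both on the minus strand and both inside the gene Med12l, which is read from the opposite strand. In GENCODE M21 on GRCm38, P2ry12 (ENSMUSG00000036353) spans chr3:59216272-59262871 and P2ry13 (ENSMUSG00000036362) spans chr3:59207892-59210882, with 5389 bases between them. The 250 bases before the RefSeq start of each gene are shown because these neighbours are the most abundant of the 9 genes, together with those of Adora3 (chr3:105904171-105904420, plus strand), which lies elsewhere on the same chromosome. The windows of P2ry12 (chr3:59262986-59263235, minus strand) and P2ry13 (chr3:59210883-59211132, minus strand) are printed 5′ to 3′ as they are read. Capitals mark the letters GAGGAA, the core bound by PU.1, a factor that microglia depend on, and CACGTG, an E-box, each on either strand. The sequences are RefSeq's on GRCm38.p6.
P2ry12: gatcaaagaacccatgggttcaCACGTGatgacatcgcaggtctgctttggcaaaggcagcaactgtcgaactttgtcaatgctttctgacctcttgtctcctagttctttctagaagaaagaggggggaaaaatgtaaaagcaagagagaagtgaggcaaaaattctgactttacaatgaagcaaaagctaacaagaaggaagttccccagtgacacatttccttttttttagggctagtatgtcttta
P2ry13: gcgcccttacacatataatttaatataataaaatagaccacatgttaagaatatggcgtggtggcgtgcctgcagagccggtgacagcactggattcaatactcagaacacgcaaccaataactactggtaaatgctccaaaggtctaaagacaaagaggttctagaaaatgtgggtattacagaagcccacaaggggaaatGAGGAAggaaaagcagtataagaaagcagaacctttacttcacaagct
Adora3: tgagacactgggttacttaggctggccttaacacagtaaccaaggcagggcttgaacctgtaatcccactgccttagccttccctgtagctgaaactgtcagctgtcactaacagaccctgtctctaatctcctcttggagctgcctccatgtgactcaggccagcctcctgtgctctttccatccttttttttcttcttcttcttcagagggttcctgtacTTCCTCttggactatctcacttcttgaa

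The PU.1 core begins 48 bases before the start of P2ry13 and 28 bases before that of Adora3. The Adora3 window lies inside the GENCODE span of that gene, chr3:105870858-105908926. The windows of P2rx4, P2rx7 and Nt5e hold no match and are not printed. Entpd1 has 2 windows, not printed either, and the second holds the PU.1 core at 2 places. Over 9 such windows of 7 of the genes, 3 held the PU.1 core, 1 held the E-box and none held the composite site of Ets and IRF factors, GGAA followed by GAAA after any pair of bases. Over all 32851 promoter windows of the same length these shares were 23.3%, 6.02% and 2.3%. A match describes the letters and is no evidence of binding. P2ry6 and Adora2a had no window among these 9. By GENCODE M21, all 250 bases of the Nt5e window lie in exons of Nt5e. In the window of the first P2rx7 start, 16 bases lie in exons of P2rx7.

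P2ry12 encodes the ADP receptor by which resting microglia are commonly identified. It reached 1029, 876 and 600.5 CPM in MRL/lpr replicates 1, 2 and 3, and 1259.5, 1379.9 and 1337 CPM in MRL/mpj replicates 1, 2 and 3. All MRL/lpr libraries were below all MRL/mpj libraries, but the lpr libraries were spread widely, with replicate 3 lowest. The log2 fold change was -0.67 (SE 0.19, 95% interval -1.13 to -0.21), and the gene was not called (edgeR adjusted p = 0.0566). Its mean was 835 ± 217 CPM (SD, n = 3) against 1326 ± 61.0 CPM (SD, n = 3). Over 17 alternatives the adjusted p ran from 0.000307 with DESeq2 to 0.153 with no count filter, and 8 of the 17 called the gene lower. Without MRL/lpr replicate 3, P2ry12 was called lower at a log2 fold change of -0.47 (edgeR adjusted p = 0.00728). Without MRL/lpr replicate 1 it was called lower at -0.84 (edgeR adjusted p = 0.0114). Leaving out any other single library gave no call, with edgeR adjusted p-values from 0.0992 to 0.128.

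P2ry13, a second Gi-coupled receptor for ADP, had 1083, 1083 and 1142 CPM in the MRL/lpr libraries and 1386, 1330.1 and 1339 CPM in the MRL/mpj libraries. The libraries of each strain lay close together and the strains did not overlap. P2ry13 fell by 0.29 on the log2 scale (SE 0.05, edgeR adjusted p = 0.00463), to 81.6% of the MRL/mpj mean, and it was called lower in each of 17 alternatives. Within each library the ratio of P2ry12 to P2ry13 in deposited FPKM, a level per gene length, was 0.943, 0.803 and 0.522 in MRL/lpr and 0.902, 1.03 and 0.991 in MRL/mpj. Only the ratio of MRL/lpr replicate 1 lay inside the MRL/mpj range, and the difference in mean ratio had an exact two-sided permutation p of 0.2, where 0.1 is the smallest that 3 libraries against 3 can give. Med12l itself had 4096, 3953 and 5350 counts in MRL/lpr and 7139, 7646 and 7502 counts in MRL/mpj. It was also lower, with a log2 fold change of -0.54 (SE 0.16, edgeR adjusted p = 0.0424). Its exons share 9 bases with those of P2ry12 and 0 with those of P2ry13. The library kit marks strand, and the strand setting of the authors' counting is not given in the sources used here.

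P2ry6 (ENSMUSG00000048779, chr7:100937630-100974649, minus strand), the UDP receptor, had 109, 112 and 156 CPM in the MRL/lpr libraries and 182, 189 and 184 CPM in the MRL/mpj libraries. MRL/lpr replicate 3 was nearer to the MRL/mpj libraries than the other MRL/lpr libraries were, without reaching them. P2ry6 fell by 0.56 on the log2 scale (SE 0.13, edgeR adjusted p = 0.0158). Its mean level was 68.0% of that in MRL/mpj. The call was lost without MRL/lpr replicate 2 (adjusted p = 0.053) and without MRL/mpj replicate 2 (adjusted p = 0.0534), with log2 fold changes of -0.48 and -0.55 from edgeR, in a range of 1.65e-05 to 0.0534 over the alternatives.

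P2rx7 (ENSMUSG00000029468, chr5:122643911-122691432, plus strand) had the largest fitted decrease of the 9 genes. It reached 116, 133 and 125 CPM in the MRL/lpr libraries and 164, 232 and 269 CPM in the MRL/mpj libraries. Here the spread lay in the controls, and MRL/mpj replicate 1 was the lowest of them while still above every MRL/lpr library. P2rx7 fell by 0.83 on the log2 scale (SE 0.17, 95% interval -1.23 to -0.43, edgeR adjusted p = 0.0131), to 56.4% of the MRL/mpj mean. Without MRL/mpj replicate 1 the log2 fold change was -1.01, past the minimum of 1. Leaving out MRL/lpr replicate 1 lost the call (edgeR adjusted p = 0.0581), as did leaving out replicate 3 (edgeR adjusted p = 0.118), in a range of 2.45e-06 to 0.118 over the alternatives.

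P2rx4 (ENSMUSG00000029470, chr5:122707544-122729738, plus strand) lies 16111 bases downstream of P2rx7 on the same strand. Its channel is known from microglia that react to nerve injury. It had 41.9, 33.2 and 34.4 CPM in the MRL/lpr libraries and 39.2, 39.9 and 39.6 CPM in the MRL/mpj libraries. MRL/lpr replicate 1 lay above and replicates 2 and 3 below all controls. The log2 fold change of -0.12 had a 95% interval from -0.35 to 0.12 (edgeR adjusted p = 0.5), so a decrease to 78.4% or an increase to 108% of the MRL/mpj level lies within it. P2rx4 was called in none of the 17 alternatives. In FPKM, P2rx7 exceeded P2rx4 by 3.27, 4.73 and 4.29 times in MRL/lpr and by 4.91, 6.85 and 7.99 times in MRL/mpj. These ratios did not overlap, and their exact two-sided permutation p was 0.1, the smallest possible.

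Adora3 (ENSMUSG00000000562, chr3:105870858-105908926, plus strand) encodes the Gi-coupled A3 adenosine receptor. It had 78.8, 84.1 and 102 CPM in the MRL/lpr libraries and 109.8, 123 and 119.9 CPM in the MRL/mpj libraries. The strains did not overlap, and MRL/lpr replicate 3 came nearest to the controls. Adora3 fell by 0.42 on the log2 scale (SE 0.10, edgeR adjusted p = 0.0193), to 75.0% of the MRL/mpj mean. The call was lost in 4 of the 6 fits that left out 1 library, those without MRL/lpr replicate 1 or 2 or MRL/mpj replicate 2 or 3, with edgeR adjusted p-values from 0.0677 to 0.0815, where those of all alternatives ran from 0.000891 to 0.0815. Adora3 shares 779 of its 3729 exonic bases with Tmigd3 on the same strand, and Tmigd3 had 0 to 36 counts in each library.

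Adora2a (ENSMUSG00000020178, chr10:75316877-75334784, plus strand), an adenosine receptor coupled to Gs, was scarce. It had 3.30, 5.04 and 3.40 CPM in the MRL/lpr libraries, or 155, 237 and 142 counts, and 3.15, 3.44 and 3.44 CPM in the MRL/mpj libraries, or 162, 172 and 179 counts. Only MRL/lpr replicate 2 stood away from the rest. The log2 fold change was 0.23 with a 95% interval from -0.31 to 0.76 (edgeR adjusted p = 0.582), and it was 0.00 without MRL/lpr replicate 2. The FPKM of Adora3 exceeded that of Adora2a by 19.8, 13.7 and 25.04 times in MRL/lpr and by 28.5, 29.6 and 28.8 times in MRL/mpj, without overlap (exact two-sided permutation p = 0.1, the smallest possible).

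Entpd1 (ENSMUSG00000048120, chr19:40612366-40741602, plus strand) encodes CD39 and was the third most abundant of the 9. It had 549, 567 and 569.97 CPM in the MRL/lpr libraries and 589, 629 and 630.2 CPM in the MRL/mpj libraries. The strains did not overlap, but the step between them was small. The log2 fold change was -0.13 (SE 0.06, 95% interval -0.26 to -0.00), 91.2% of the MRL/mpj mean, and the gene was not called (edgeR adjusted p = 0.146). It was called lower in 4 of 17 alternatives, with adjusted p-values from 0.017 to 0.361 over all of them. Those 4 were scaling by library size only and both limma fits on FPKM, which are also scaled by depth, with log2 fold changes of -0.26, -0.25 and -0.25, and the fit without MRL/lpr replicate 3, with -0.14.

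Nt5e (ENSMUSG00000032420, chr9:88327197-88372092, plus strand) encodes CD73, the enzyme that makes extracellular adenosine from AMP. It was the scarcest of the 9, with 57, 149 and 53 counts in MRL/lpr against 95, 111 and 105 in MRL/mpj. MRL/lpr replicate 2 was above, and replicates 1 and 3 were below, every control. The log2 fold change was -0.11 with a 95% interval from -1.02 to 0.80 (edgeR adjusted p = 0.895), which spans 49.5% to 174% of the MRL/mpj level. The sign turned when MRL/lpr replicate 1 (0.13) or replicate 3 (0.11) was left out, and the value was -0.71 when replicate 2 was. Per gene length, Entpd1 exceeded Nt5e by 276 to 714 times in MRL/lpr and by 437 to 491 times in MRL/mpj, with overlapping ranges.

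Deposited FPKM, which divides by gene length, puts the 9 genes on one scale. In the MRL/mpj libraries the order of the means was P2ry13 (498 ± 10.7, SD, n = 3), P2ry12 (484 ± 22.6), Entpd1 (103 ± 3.98), P2ry6 (59.7 ± 1.10), P2rx7 (34.5 ± 8.33), Adora3 (29.4 ± 1.77), P2rx4 (5.24 ± 0.05), Adora2a (1.01 ± 0.0462) and Nt5e (0.22 ± 0.02). The libraries of P2ry13 and P2ry12 overlapped, as did those of P2rx7 and Adora3, while the other neighbours in this order did not. In the MRL/lpr libraries P2ry13 (373 ± 0.556) stood above P2ry12 (282 ± 80.3) in each library, Entpd1 had 86.1 ± 2.15 and P2ry6 had 37.1 ± 6.52. Adora3 (20.2 ± 2.12) and P2rx7 (17.9 ± 1.35) had changed places in the order of the means, with ranges that overlapped in both strains. P2rx4 (4.45 ± 0.654), Adora2a (1.09 ± 0.298) and Nt5e (0.187 ± 0.115) kept the last places. By mean FPKM over the 6 libraries, P2ry13 ranked 78th and P2ry12 91st of 30468 genes with a level above 0, and Nt5e ranked 18123rd.

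**Figure D2:**
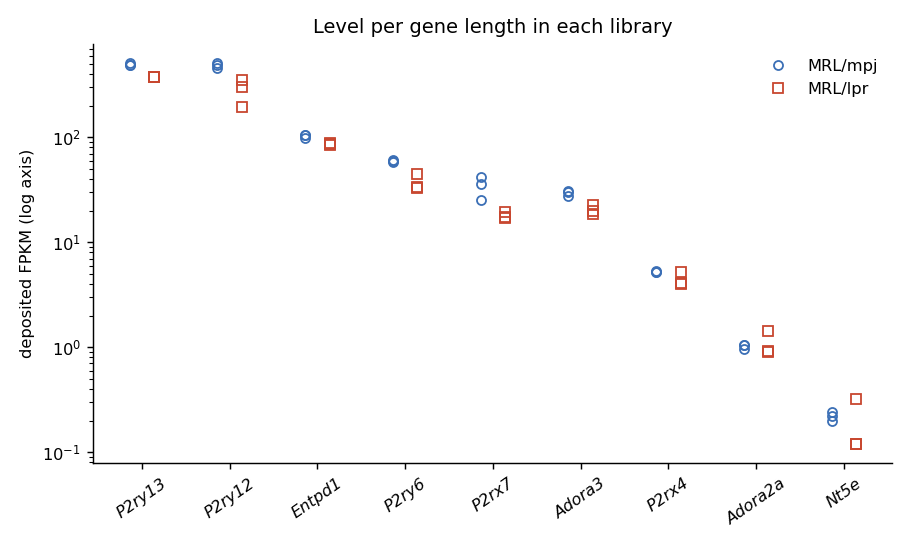
Deposited FPKM (log axis) of each gene in the 3 MRL/mpj libraries (circles) and 3 MRL/lpr libraries (squares), ordered by the MRL/mpj mean. Levels run from 498 for P2ry13 to 0.22 for Nt5e in MRL/mpj, and the MRL/lpr squares of P2ry12, P2ry13, P2ry6, P2rx7, Adora3 and Entpd1 lie below the circles.

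Around these 9 genes, 51 further genes of the purinergic system and of the inflammasome that P2X7 acts on were listed, and 43 could be tested. Of the 43, 9 were higher and 6 were lower (edgeR adjusted p under 0.05, against 11.1% higher and 9.06% lower over all genes). The 8 genes of the inflammasome and its products gave 3 of the higher and 1 of the lower calls. The median log2 fold change of the 43 was -0.013, against -0.0093 over all genes. With the minimum fold change, 5 of the 43 were higher and 2 lower, of which the inflammasome list gave 1 and 1. The number lower was 3 without MRL/mpj replicate 1, and the number higher with the minimum fold change was 1 with limma on log2(FPKM + 1). The genes Entpd8, Slc28a1, Panx3 and Calhm1 had at most 3 counts in every library.

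Of 5 other P2Y receptors tested, 1 was called, and it was higher, against 11.1% higher and 9.06% lower over all genes. P2ry10, a receptor of lymphocytes for lysophosphatidylserine despite its name, had 2.7, 4.42 and 3.28 CPM in the MRL/lpr libraries and 0.973, 0.58 and 0.557 CPM in the MRL/mpj libraries. The strains did not overlap, and P2ry10 rose by 2.30 on the log2 scale (SE 0.35, edgeR adjusted p = 0.00146). Markers of T and NK cells moved the same way, with 6 of 8 higher and a summed level of 17.0 to 24.6 CPM in MRL/lpr against 4.69 to 4.86 CPM in MRL/mpj. P2ry10 is on the X chromosome, like Xist. The part of these 2 in the result was not tested. P2ry14, the UDP-glucose receptor beside P2ry13, had 1.43, 1.51 and 0.383 CPM in MRL/lpr and 2.39, 2.88 and 2.83 CPM in MRL/mpj, with a log2 fold change of -1.28 (SE 0.46, edgeR adjusted p = 0.0837).

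Of 3 other P2X channels tested, P2rx1 was lower, as were 9.06% of all genes. Its CPM was 47.6, 48.2 and 49.2 in MRL/lpr and 80.8, 80.5 and 83.4 in MRL/mpj, with little spread in either strain. P2rx1, a fast-desensitizing ATP channel of platelets and myeloid cells, fell by 0.75 on the log2 scale (SE 0.07, edgeR adjusted p = 7.85e-05), and it was called in all 17 alternatives. Neither Adora1 nor Adora2b was called.

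Of 8 other ecto-enzymes tested, 1 was higher and 2 were lower, against 11.1% and 9.06% of all genes. Enpp2, which encodes autotaxin, a phosphodiesterase that makes lysophosphatidic acid, had 219.5, 223 and 212 CPM in the MRL/lpr libraries and 937, 826 and 864 CPM in the MRL/mpj libraries. It fell by 2.004 on the log2 scale (SE 0.07, edgeR adjusted p = 1.96e-07). Of 6 markers of choroid plexus and ependyma, 4 were lower as well, and their summed level was 342 to 357 CPM in MRL/lpr against 1013 to 1092 CPM in MRL/mpj, where the part of that tissue in the Enpp2 result was not tested. Alpl, a phosphatase that can carry nucleotides down to nucleosides, fell by 0.60 (SE 0.15, edgeR adjusted p = 0.0214), and its call was lost in 5 of the 6 fits without 1 library. Bst1, an enzyme that acts on NAD, had 6.53, 5.06 and 6.44 CPM in MRL/lpr and 1.01, 0.62 and 1.31 CPM in MRL/mpj. It rose by 2.61 on the log2 scale (SE 0.31, edgeR adjusted p = 0.000307).

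Among 12 tested genes of nucleoside transport and breakdown, 4 were higher and 2 lower, against 11.1% and 9.06% of all genes. Ada, the deaminase that turns adenosine into inosine, had 21.3, 21.8 and 22.8 CPM in the MRL/lpr libraries and 9.9, 12.7 and 10.49 CPM in the MRL/mpj libraries. It rose by 0.99 on the log2 scale (SE 0.13, edgeR adjusted p = 0.000477). Pnp, the phosphorylase that takes the next step, was abundant at 367 ± 21.5 CPM (SD, n = 3) against 213 ± 14.8 CPM (SD, n = 3), and rose by 0.78 (SE 0.07, edgeR adjusted p = 8.04e-05). Ampd3, an AMP deaminase, rose by 1.03 and the concentrative nucleoside transporter gene Slc28a2 by 2.26, the latter from 0.454 to 2.19 CPM. Adk, the kinase that returns adenosine to AMP inside the cell, fell by 0.59 (SE 0.15, edgeR adjusted p = 0.0187), and Ampd2 fell by 0.41 (edgeR adjusted p = 0.0469). Ada, Pnp, Ampd3 and Slc28a2 were called in all 17 alternatives, Adk in 15 and Ampd2 in 11. The equilibrative transporter gene Slc29a3 was the most abundant of the transporters, at 622 against 566 CPM, and was not called.

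None of 5 tested genes of ATP release was called. Panx1, the pannexin channel gene, had the smallest adjusted p of them at 0.0623 (log2 fold change 0.77, SE 0.25), and it was called higher with DESeq2 and without MRL/lpr replicate 2. Of 8 genes of the inflammasome and its products that P2X7 is known to act on, 3 were higher and 1 was lower. The shares over all genes were 11.1% and 9.06%. Nlrp3, the sensor, had 290.0, 206 and 186 CPM in the MRL/lpr libraries and 116, 89.8 and 90.4 CPM in the MRL/mpj libraries, and rose by 1.201 on the log2 scale (SE 0.19, edgeR adjusted p = 0.00467). Pycard, which encodes the adaptor ASC, had 25.3, 20.8 and 23.7 CPM against 70.4, 68.7 and 67.1 CPM and fell by 1.56 (SE 0.10, edgeR adjusted p = 5.57e-06). The cytokine genes Il1a and Il1b rose by 0.88 and 0.66. Casp1, Il18, Gsdmd and Nek7 were not called.

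**Figure D3:**
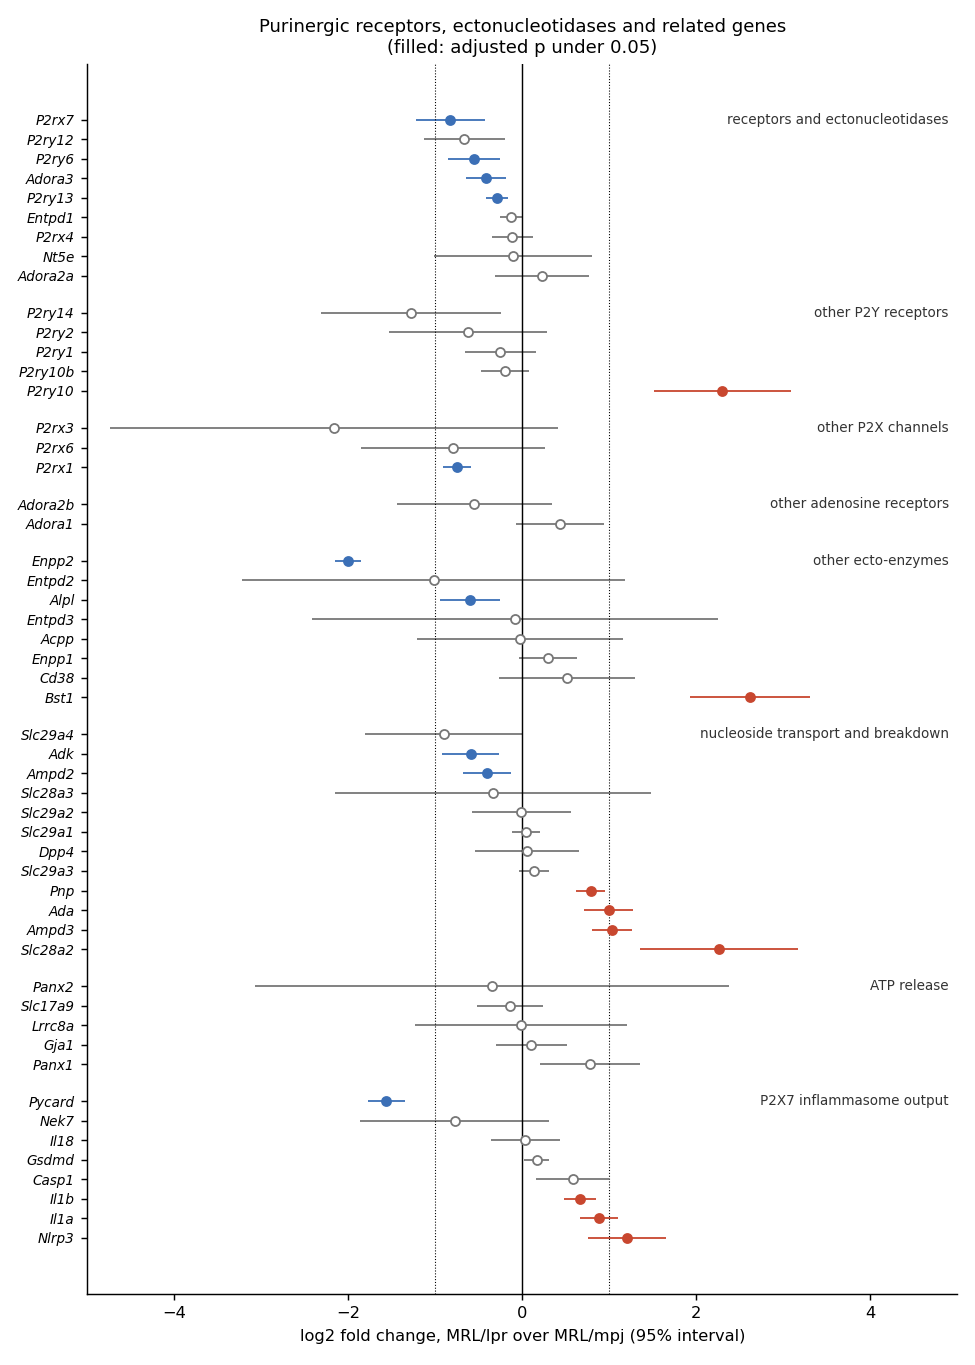
Log2 fold changes (MRL/lpr over MRL/mpj) with 95% intervals for the 9 purinergic receptor and ectonucleotidase genes and the 43 further genes tested, grouped by role. Filled points have an adjusted p under 0.05, and dotted lines mark log2 fold changes of -1 and 1. In the top group the 4 filled points, P2rx7, P2ry6, Adora3 and P2ry13, lie between -0.83 and -0.29. Among the 43 further genes, 9 filled points lie to the right of 0 and 6 to the left, from Bst1 at 2.61 to Enpp2 at -2.004.

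Markers of homeostatic microglia were read beside these genes, since several of the 9 are used to describe resting microglia. The libraries were rich in them, with summed levels of 20813, 23072 and 24773 CPM in MRL/lpr and 24523 to 24969 CPM in MRL/mpj. Only MRL/lpr replicate 3 lay within the MRL/mpj range, and replicates 1 and 2 lay below it. The sum of MRL/lpr replicate 2 included 2819 CPM of Cx3cr1, against 226 and 247 CPM in MRL/lpr replicates 1 and 3. Of 11 markers, Gpr34, Fcrls and Sparc were lower, Slc2a5 was higher and 7 were not called, against 9.06% lower and 11.1% higher over all genes. Csf1r, the most abundant, had a log2 fold change of 0.07 (edgeR adjusted p = 0.694). The median of the 11 markers, each as a percentage of its MRL/mpj mean, was 85.5%, 87.1% and 90.6% in the 3 MRL/lpr libraries. The same median over the 9 purinergic genes was 77.6%, 80.1% and 84.5%. Single genes of both groups lay far from these medians: P2rx7 was at 52.5% to 60.2%, Fcrls at 28.7% to 30.2%, and Cx3cr1 at 40.3%, 501.5% and 44.0%. The part of a shift in the whole microglial programme in the purinergic values was not tested.

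**Figure D4:**
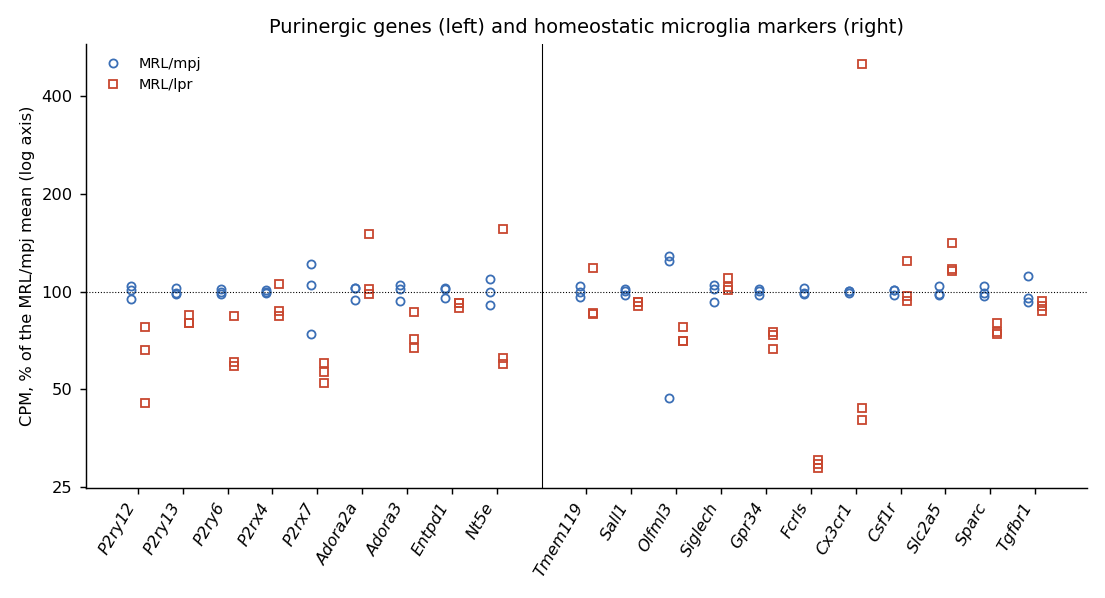
CPM of each library as a percentage of the gene's MRL/mpj mean (log axis) for the 9 purinergic genes (left) and 11 homeostatic microglia markers (right), with MRL/mpj libraries as circles and MRL/lpr libraries as squares. P2rx7 squares sit at 52.5% to 60.2%, and 1 Cx3cr1 square at 501.5%.

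Other cell types were low but present, and some differed between the strains. The counts of markers called below stand against 11.1% higher and 9.06% lower over all genes, and several lists lie near those shares. Summed levels were 464 to 504 CPM in MRL/lpr against 781 to 806 CPM in MRL/mpj for 7 border macrophage markers (0 higher, 3 lower, led by Stab1), 77.8 to 88.9 against 82.9 to 90.1 CPM for 7 monocyte markers (4 higher, 1 lower, led by Chil3), and 579.5 to 659 against 451 to 510.2 CPM for 7 neutrophil markers (3 higher, 0 lower, led by Ngp). The 6 endothelial and pericyte markers, of interest because vessels carry CD39, summed to 1391 to 1594 CPM against 1329 to 1369.9 CPM (1 higher, 1 lower, led by Flt1). Summed levels were 9.37 to 10.7 against 8.43 to 10.1 CPM for 6 B cell markers (none of 4 tested called, led by Cd79b) and 107 to 153 against 183 to 189 CPM for 6 astrocyte markers (0 higher, 1 lower, led by Slc1a3). They were 85.4 to 103 against 111 to 135 CPM for 7 oligodendrocyte lineage markers (0 higher, 3 lower, led by Mbp), 10.8 to 14.3 against 23.8 to 27.0 CPM for 6 neuronal markers (0 higher, 2 lower, led by Snap25) and 11.4 to 16.7 against 23.6 to 27.8 CPM for 5 markers of meningeal fibroblasts (0 higher, 2 lower, led by Col1a2). The T and NK list was led by Lck and the choroid plexus list by Ttr. Stab1 made up most of the border macrophage sum, at 414, 413 and 453 CPM in MRL/lpr and 717, 745 and 740 in MRL/mpj. Of those 7 markers 5 had negative log2 fold changes, while Cd163 (0.62) and F13a1 (0.21) were positive and not called. No marker was at 3 or fewer counts in every library. The part of these cells in the purinergic values was not tested.

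**Figure D5:**
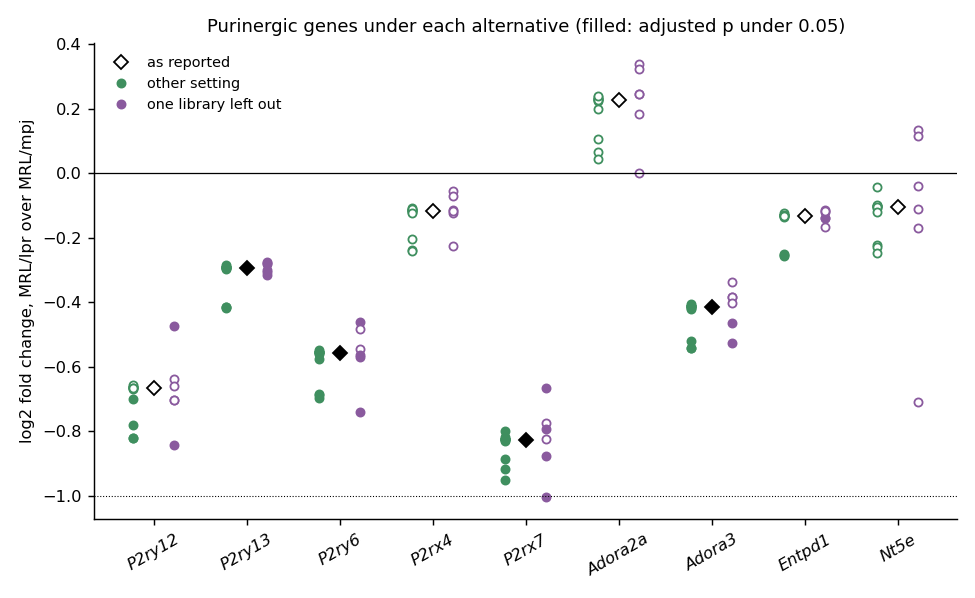
Log2 fold change (MRL/lpr over MRL/mpj) of each purinergic gene as reported (diamonds), under 11 other settings (green) and with 1 library left out (purple), filled where the adjusted p is under 0.05. P2ry13 is filled in all 17 alternatives, P2ry12 in 8 and Entpd1 in 4, and Nt5e crosses 0.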

How the data were processed

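Brain microglia of MRL/lpr and MRL/mpj mice, 3 libraries each, were profiled by RNA-seq. Libraries came from ribosome-depleted total RNA with a stranded kit, per the labels, whereas the methods describe purified mRNA, and which was used could not be settled. The submitters' processing notes name cutadapt 1.9.3, HISAT2 2.0.4, Cufflinks, Cuffdiff 2.2.1 and GRCm38, and the methods name DESeq2. The tool that counted reads is not given in the sources used here. The authors deposited whole-number counts per Ensembl gene without normalization, and FPKM per library. For the 9 genes, counts over FPKM gave lengths of 1.11 to 1.15 times the merged exon length of GENCODE M21, whose symbols matched 55141 of 55401 identifiers.

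Differences between strains were tested on these counts by edgeR 4.0.16 under R 4.3.3 (filterByExpr with a minimum count of 10 and total of 15, TMM, robust quasi-likelihood test, Benjamini-Hochberg adjustment, no covariates). The SE is the absolute log2 fold change over the square root of F, and 95% intervals use the t quantile of the fit. Alternatives were DESeq2 1.42.0, other scalings and filters, counts divided by 4, limma 3.58.1 on log2(FPKM + 0.1) and log2(FPKM + 1), a replicate block, and each library left out. The main fit, DESeq2, limma and the replicate block were run on simulated counts. Those counts had less spread between libraries than these data and planted log2 fold changes of at least 1 in size. The simulation therefore does not check the fits at the smaller changes of the 9 genes. No pair of libraries of one strain had identical counts. Replicates of one strain differed by 4.22 to 12.0 times counting noise (median squared difference), if each count is taken as 1 read. What 1 count stands for is not given, so this ratio cannot show whether the libraries came from separate animals. One listed microglia marker is not reported here and was left out of its list. The genes, lists and markers were chosen with earlier results of these data known. By rule, the text names the 9 genes, the most abundant marker of each list and genes overlapping the 9. Of the 51 further genes, it names those that passed both thresholds or had at most 3 counts in every library. Every other gene named was chosen after its values were seen, whether or not it passed the test.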

Additional observations from a re-analysis of the deposited data

How the results depend on the processing

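No purinergic gene of the 9 was called higher under any alternative. The number called lower was 4 to 6 under the 11 settings that kept all libraries. It reached 6 with scaling by library size only and with the limma fits on log2(FPKM + 0.1) and log2(FPKM + 1). In those fits 2790, 2530 and 2605 of all genes were lower, against 1772. With 1 library left out, 2 to 5 of the 9 were called lower, where 1177 to 1971 of all genes were. The number of the 9 lower with the minimum fold change then ran from 0 to 1. Among the further purinergic and inflammasome genes, the number called lower ran from 3 to 7 with 1 library left out. Their number higher with the minimum fold change was 1 with limma on log2(FPKM + 1), against 5. Of 153 single-gene values, 131 kept their direction and side of the threshold, 8 lost the call, 12 gained it and 2 turned sign. The 2 that turned were those of Nt5e, whose range was -0.71 to 0.13 with 1 library left out. P2ry12 gained the call in 8 alternatives, and the cause was not tested. Replicate numbers did not pair the libraries: deviations of same-numbered libraries correlated at -0.041, -0.02 and -0.033. With the replicate block, 5 of the 9 were lower, P2ry12 among them at a log2 fold change of -0.70 (edgeR adjusted p = 0.0485), and 1309 genes in all were lower against 1772. With scaling by library size only, 2790 were lower, and without MRL/mpj replicate 1, 1177 were. With limma on log2(FPKM + 1), 351 genes were higher and 263 lower by the minimum fold change, against 914 and 716. Nt5e and Adora2a had at most 149 and 237 counts in a library, and with counts divided by 4 their adjusted p-values were 0.875 and 0.553 with edgeR, against 0.895 and 0.582.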
